A study of Homo sapiens with 22 samples.

Results

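Chromosome 19 carries the largest share of the human genes for C2H2 zinc finger proteins, and 241 of them, named ZNF with a number, were measured here for how much of their RNA was recovered with PSF. The members were the protein-coding RefSeq transcripts (accession class NM) on chromosome 19 whose symbol is ZNF, a number and at most 1 letter. Each gene was represented by its transcript with the highest mean count. They made 241 of 20239 gene symbols with a read and 241 of 15694 protein-coding ones, and a further 242 protein-coding ZNF genes lie on other chromosomes. PSF, also called SFPQ, is a nuclear RNA-binding protein with roles in splicing and RNA retention. RNA immunoprecipitated with PSF (PSF-RIP) and the matching input RNA were sequenced from 3 human prostate cancer cell lines, LNCaP, 22Rv1 and LTAD, after 24 h of ethanol vehicle or 10 nM dihydrotestosterone (DHT), an androgen. LNCaP and 22Rv1 are established lines that express the androgen receptor. The labels do not spell out the name LTAD, a line grown in medium with charcoal/dextran-treated serum. All lines were kept in charcoal-treated serum before the hormone. Each line, treatment and assay had 1 library, 12 in all. Recovery was compared between the 6 PSF-RIP and the 6 input libraries, with terms for line and treatment but none for the pair. Each line entered the comparisons of lines with 2 samples, 1 per treatment. No label says that they came from separate cultures, so the p-values measure only the spread between these libraries, which may be technical. LNCaP cells also gave 4 peak lists from crosslinking immunoprecipitation (CLIP) of PSF, 2 with vehicle and 2 with DHT. The study asked which transcripts associate with PSF in prostate cancer cells.

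C2H2 zinc finger proteins bind DNA through rows of small domains, each folded around a zinc ion and joined to the next by a short conserved linker. Many of those on chromosome 19 also carry a KRAB domain, which recruits the corepressor TRIM28 and, through it, the histone methyltransferase SETDB1 and heterochromatin protein. The genes arose by repeated tandem duplication, so they lie in clusters of near relatives, and several are known for silencing transposable elements. Their coding sequence was usually concentrated in the last coding exon, which held a median of 87.8% of it. By the gene models, the members had a median of 4 exons and 12 fingers, with 1 finger in ZNF428 at the low end and 36 in ZNF208 at the high end. The linker codons were found in 86.3% of the 240 members with a model, against 3.32% of all 14863 protein-coding genes with one.

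The repeat that makes the family is shown by 1 finger with the linkers on both sides, in capitals, from 5 members whose values are given further on. The sequences are read on the strand of the gene from GRCh37, the build of the count files. They lie at chr19:9524297-9524394, chr19:9677193-9677290, chr19:22156649-22156746, chr19:23927258-23927355 and chr19:23544819-23544916, all on the minus strand.
ZNF266: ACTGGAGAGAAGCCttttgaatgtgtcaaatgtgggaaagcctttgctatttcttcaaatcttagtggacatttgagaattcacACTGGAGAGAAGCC
ZNF121: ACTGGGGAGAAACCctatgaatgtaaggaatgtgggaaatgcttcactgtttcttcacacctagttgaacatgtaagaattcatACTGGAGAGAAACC
ZNF208: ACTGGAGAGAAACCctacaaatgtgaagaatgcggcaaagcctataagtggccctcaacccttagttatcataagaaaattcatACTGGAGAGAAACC
ZNF681: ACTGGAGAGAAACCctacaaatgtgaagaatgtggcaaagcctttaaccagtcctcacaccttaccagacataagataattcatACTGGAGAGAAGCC
ZNF91: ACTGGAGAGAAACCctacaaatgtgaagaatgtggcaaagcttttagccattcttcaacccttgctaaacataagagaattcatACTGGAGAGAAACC
The stretches of ZNF681 and ZNF91, which lie in the same cluster, were identical at 88.8% of bases, and those of ZNF266 and ZNF208 at 70.4%. In 177 members with such a 98-base stretch, the median identity was 75.5% between members of 1 cluster and 67.3% between clusters. No member's stretch was identical to another's, and the closest match of a member was at a median of 85.7%. Only the first such stretch in the last coding exon of each member was compared. Many members hold several, and closer matches between other fingers were not looked for. A column of the deposited tables marks the counts as unique reads, and how many reads similar copies lose by this was not tested.

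The members gave few reads in each library. Their sense exon reads made 0.442% to 0.767% of the non-mitochondrial reads of a library, and 225 to 237 of the 241 had at least 1 read. The inputs held 838460 to 2212964 reads over genes and the PSF-RIP libraries 3672600 to 7617116, so precision is lower in the inputs. The median member stood at 3.38 to 4.57 RPKM, a count scaled to transcript length and library size, in the inputs, below the median protein-coding gene at 5.13 to 5.75. The 10 members with the highest mean input level were ZNF358 (72.2 RPKM), ZNF146 (54.4), ZNF121 (51.6), ZNF460 (36.4), ZNF91 (35.9), ZNF580 (33.4), ZNF428 (27.8), ZNF444 (24.5), ZNF581 (24.4) and ZNF787 (19.9). All 12 prostate luminal markers examined were detected in the inputs. Of 3 basal markers, KRT5 and TP63 had no read in any input, and KRT14 stood at 1.59 CPM in the DHT input of LNCaP and at 0 in the others.

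A total of 225 members passed the filter on low counts, and the other 16 had too few reads to test. Of the 225, 40 were higher and 38 lower in PSF-RIP than in input at an adjusted p below 0.05 (edgeR's quasi-likelihood test with Benjamini-Hochberg adjustment over 13368 genes). In 7 of the 225 members, all among the 40, every PSF-RIP library was above every input, against 6.49% of all genes, and in 11, all among the 38, every one was below, against 7.45%. The 78 calls are 34.7% of the members, against 58.0% of all genes called either way, 30.5% called higher and 27.5% called lower. The median log2 ratio of PSF-RIP to input was 0.06 in the members and 0.05 over all genes, and the quartiles of the members were -0.31 and 0.32. The members had fewer reads than the average gene, with a median log2 CPM, a count scaled to library size, of 4.18 against 5.07, and how much this lowers their number of calls was not tested. For comparison, the other protein-coding genes of chromosome 19 had a median of 0.24 and 64.1% called, 278 higher and 152 lower. ZNF genes of other chromosomes had a median of 0.13 and 52.3% called. The median over the members was close to 0 in each of the 6 pairs, from -0.07 in LNCaP with DHT to 0.14 in 22Rv1 with vehicle. Enrichment is relative to input, since no immunoglobulin control was analysed here.

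The member with the highest recovery was ZNF266, a gene with 12 fingers at 9.5 Mb. Its level had a lowest, median and highest value of 12.2, 28.5 and 33.8 CPM over the 6 inputs and 45.1, 77.0 and 111.7 CPM over the 6 PSF-RIP libraries. Every PSF-RIP library was above every input, and the log2 ratio was 1.46 ± 0.13 (SE, 6 PSF-RIP and 6 input libraries, adjusted p = 4.21e-09). ZNF208, the member with the most fingers, stood at 8.96, 28.3 and 31.5 CPM in the inputs and 12.4, 72.3 and 117.8 CPM in PSF-RIP. The 2 PSF-RIP libraries of 22Rv1 were above the inputs of that line and below those of the other lines, and the log2 ratio was 1.28 ± 0.17 (SE, adjusted p = 1.42e-06). The ratio was above 0 in 6 of 6 pairs, lowest in 22Rv1 (0.39 and 0.46) and highest in LTAD (1.88 and 1.72). ZNF550 had 16.1, 27.3 and 37.9 CPM in the inputs and 37.3, 66.2 and 88.0 CPM in PSF-RIP, and a log2 ratio of 1.18 ± 0.12 (SE, adjusted p = 3.97e-08). Its 6 pairs lay close together, between 0.90 and 1.30.

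A total of 27 members were called higher, stood at or above the median level of the members and had the same sign in 6 of 6 pairs. After ZNF266, ZNF208 and ZNF550, the highest log2 ratios were those of ZNF324 (1.08), ZNF765 (0.96), ZNF446 (0.93), ZNF347 (0.91), ZNF865 (0.85), ZNF324B (0.79), ZNF761 (0.79), ZNF667 (0.76) and ZNF71 (0.74). ZNF324, ZNF324B and ZNF446 are neighbours at the end of the chromosome arm, and ZNF446 is the last member along it. ZNF761 shares bases on its strand with the annotated pseudogene TPM3P9, so its count is uncertain. In ZNF71, the DHT pair of LNCaP (1.72) stood above the other 5, which ran from 0.25 to 0.87. With all libraries thinned to the size of the smallest, ZNF71 no longer passed the threshold (log2 ratio 0.52).

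Members called lower had a median input level of 7.13 RPKM and members called higher 4.62. Input is the denominator of the ratio, so this order may be partly built in. Over all 12 libraries the order was the opposite, with a median log2 CPM of 4.41 in members called lower and 4.76 in members called higher. This second measure is not scaled to transcript length and includes PSF-RIP, the numerator of the ratio, so its order may be partly built in too. ZNF581 stood at 24.8, 28.6 and 37.3 CPM (lowest, median and highest) in the 6 inputs and at 12.02, 14.1 and 18.9 CPM in the 6 PSF-RIP libraries. Its groups did not overlap, and the log2 ratio was -1.09 ± 0.13 (SE, adjusted p = 6.76e-07). ZNF829 stood at 25.8, 27.8 and 37.4 CPM in the inputs and 12.6, 14.6 and 17.0 CPM in PSF-RIP, also without overlap (log2 ratio -1.05 ± 0.14, SE, adjusted p = 3.01e-06). ZNF121 stood at 57.9, 90.4 and 113.0 CPM in the inputs and 30.9, 47.2 and 60.5 CPM in PSF-RIP (log2 ratio -0.99 ± 0.09, SE, adjusted p = 2.01e-08). The groups overlapped in 1 place, the vehicle input of 22Rv1 (57.9) and the DHT PSF-RIP library of LNCaP (60.5), and all 6 pairs lay between -0.76 and -1.10. The other members named by the same rule, which 19 members met, were ZNF562 (-0.95), ZNF260 (-0.93), ZNF358 (-0.83), ZNF587B (-0.71), ZNF580 (-0.70), ZNF749 (-0.70), ZNF805 (-0.66), ZNF480 (-0.64) and ZNF264 (-0.59). ZNF358, the most abundant member per length, had pairs of -1.43 and -1.32 in LTAD, -0.65 and -0.74 in LNCaP and -0.31 and -0.34 in 22Rv1. ZNF580 and ZNF581 are adjacent genes, and ZNF264 and ZNF805 are near each other too.

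**Figure D1:**
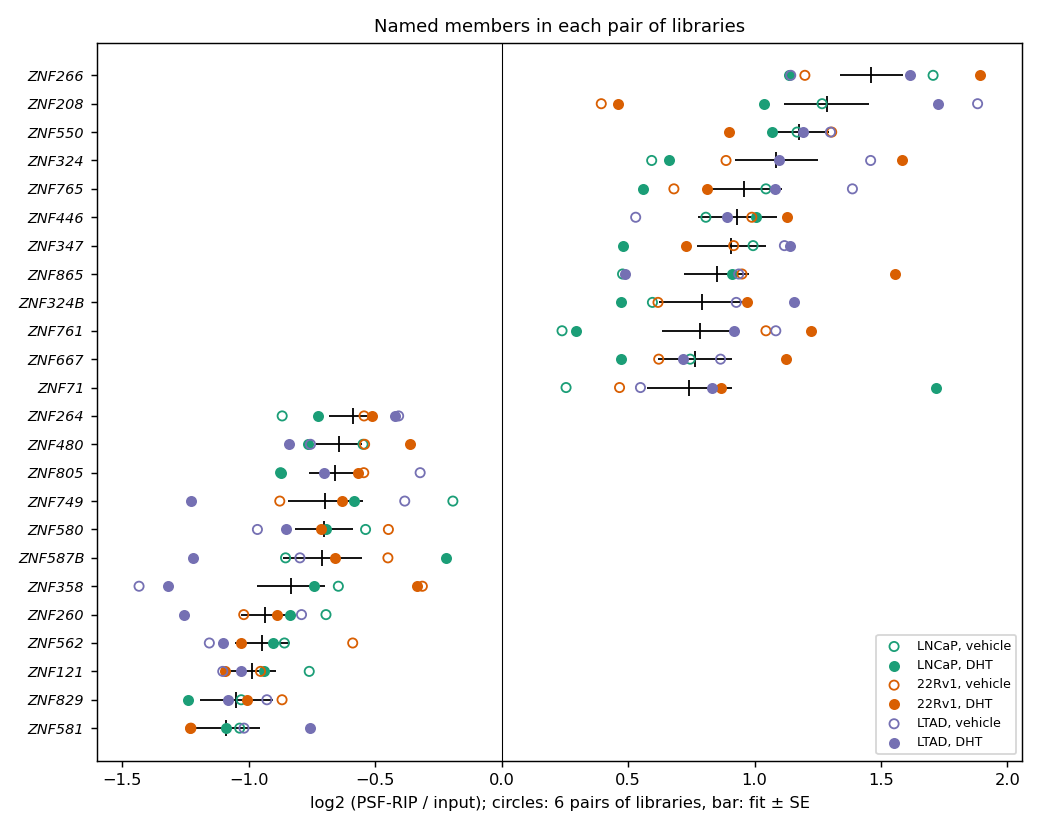
Log2 ratio of PSF-RIP to input on the horizontal axis for the 24 named members, 1 row each; circles are the 6 line and treatment pairs, open for vehicle and filled for DHT, and the black bar is the fitted value ± SE. All 6 circles of each gene lie on 1 side of 0, which the rule for naming required, and the pairs of ZNF208 spread from 0.39 to 1.88.

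The members were divided along the chromosome into 16 stretches wherever successive starts lay over 1 Mb apart, and 9 stretches held at least 5 tested members. Their median log2 ratios ran from -0.36 in 5 members at 2.8 to 2.9 Mb to 0.16 in 5 members at 35.2 to 35.5 Mb. For comparison with the counts by stretch, 27.5% of all genes tested were called lower and 30.5% higher. The stretch at 36.7 to 38.3 Mb had 7 members lower and none higher among 25 (median -0.21). The stretch at 52.1 to 54.1 Mb had 8 higher and 2 lower among 37 (median 0.08). The last and largest stretch, 56.0 to 59.0 Mb, had 17 higher and 14 lower among 57, with a median of -0.0026. ZNF581 and ZNF550 both lie in it. Within the stretch at 36.7 to 38.3 Mb, the medians of the 6 pairs ran from -0.36 to 0.12. No difference between stretches was tested.

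**Figure D2:**
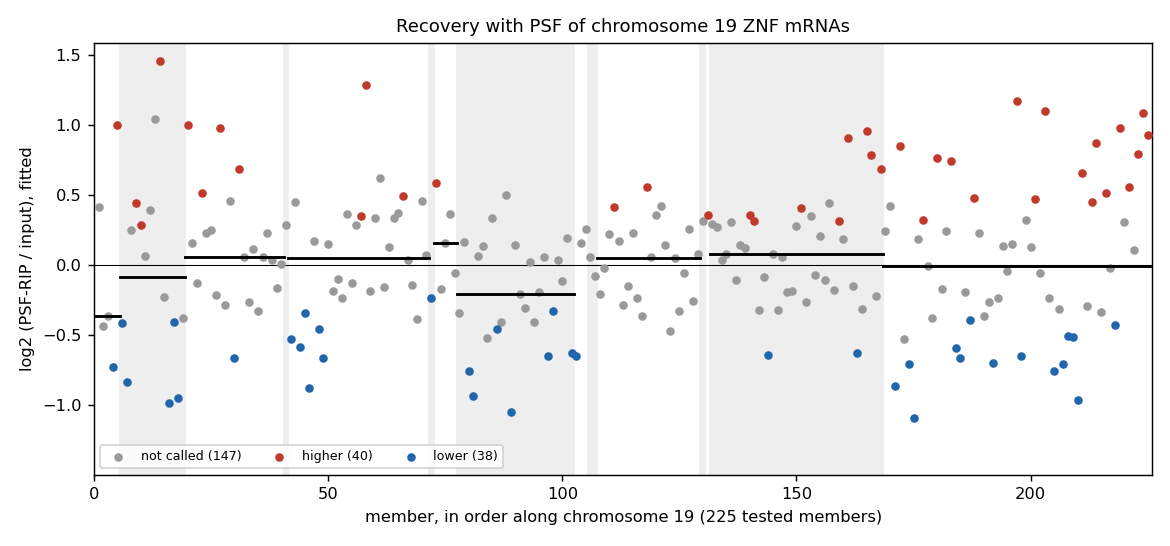
Fitted log2 ratio of PSF-RIP to input (vertical axis) for the 225 tested members in their order along chromosome 19 (horizontal axis); red and blue mark members called higher (40) and lower (38), shading alternates between stretches, and black lines are the medians of stretches with at least 5 tested members. The stretch at 36.7 to 38.3 Mb holds 7 lower and no higher members among 25, and the medians of the stretches stay between -0.36 and 0.16. Of all genes tested, 27.5% were called lower and 30.5% higher.

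Over the 225 tested members, the log2 ratio had a Spearman rho of -0.03 with transcript length, 0.07 with level, 0.15 with the number of fingers, 0.08 with the GC content of the coding sequence and 0.24 with the intronic share of input reads. Over 11194 genes with a model, rho was 0.27 with the length of the transcript and 0.27 with coding GC content. These are correlations across genes of the same libraries, and genes are not independent replicates. The exon counts of the inputs enter both the ratio and the intronic share, so part of the rho of 0.24 may be built in. The members are poor in GC in their coding sequence, at a median of 41.8% against 53.1% for all protein-coding genes. Members called higher had a median of 13 fingers and members called lower 10.5. Intronic reads made 14.3% to 26.3% of the members' sense reads in the inputs and 14.1% to 26.6% in PSF-RIP. The same share over all protein-coding genes was 11.99% to 19.98% in the inputs and 11.8% to 22.2% in PSF-RIP.

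In the input RNA, 62 of the 225 members were lower in 22Rv1 than in LNCaP and 17 higher (edgeR, adjusted p below 0.05). These are 27.6% lower and 7.56% higher, 35.1% called either way. Over all genes 50.5% were called either way, 23.9% lower and 26.6% higher, so the share of members called lower is near that of all genes and the share called higher is below it. The median log2 difference was -0.38 in the members, -0.12 in ZNF genes of other chromosomes, -0.07 in the other protein-coding genes of chromosome 19 and -0.01 over all genes. Each of the 62 lower members was also lower in both PSF-RIP libraries of 22Rv1 than in those of LNCaP, and 16 of the 17 higher ones were higher in both. The same share was not computed over all genes called, so whether it is particular to the members is not known. The median over the members was -0.38 with vehicle and -0.44 with DHT in the inputs, and -0.31 and -0.30 in the PSF-RIP libraries. The count of 79 calls fell to 48 when the vehicle or the DHT libraries of 22Rv1 were left out, to 49 without the vehicle libraries of LNCaP and to 51 with all libraries thinned to equal depth. The neuroendocrine markers SYP, CHGA and CHGB were also higher in 22Rv1: the 4 markers of that list, INSM1 included, summed to 124.3 and 115.4 CPM in its inputs, against 4.03 and 5.57 CPM in LNCaP, and 1.16 and 3.10 CPM in LTAD, with INSM1 at 0 in all inputs. The 4 stromal markers summed to 24.5 and 33.3 CPM in 22Rv1, against 108.9 and 67.6 CPM in LNCaP and 144.4 and 107.7 CPM in LTAD; 1 of the 4 was at 0 in all inputs. Most of this sum was VIM, at 17.9 and 25.1 CPM in 22Rv1 and 93.6 and 58.9 CPM in LNCaP. COL1A1 was also lower in 22Rv1, while DCN went the other way, at 3.585 and 6.111 CPM in 22Rv1 and 0 in LNCaP and LTAD. The part of either list in the result was not tested. In RNA from whole cultures, fewer cells of a kind and less RNA per cell cannot be told apart.

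The clearest single difference was ZNF681, at 23.9 Mb. No read was found in the 2 LNCaP inputs, and its level was 97.4 and 90.3 CPM in the 22Rv1 inputs and 1.16 and 0 CPM in LTAD. Against a floor of 3 reads over the 2 LNCaP inputs, the level in 22Rv1 was at least 78.4-fold higher (adjusted p = 6.46e-07). PSF-RIP libraries showed the same split, with 68.5 and 67.7 CPM in 22Rv1 and 0.893 to 1.71 CPM in the other 4. ZNF257, in the same stretch, had 18.5 and 13.6 CPM in 22Rv1, 2.42 and 1.59 CPM in LNCaP and no read in the LTAD inputs (log2 difference of 22Rv1 and LNCaP 2.98 ± 0.52, SE, adjusted p = 0.000832). ZNF93, known for repressing LINE-1 elements, had 42.4 and 52.3 CPM in 22Rv1, 8.07 and 10.3 CPM in LNCaP and 13.97 and 21.7 CPM in LTAD. Its 2 22Rv1 inputs were above all others (log2 difference 2.37 ± 0.36, SE, adjusted p = 0.000247). ZNF473, a factor in the processing of histone pre-mRNA, had 53.2 and 50.9 CPM in 22Rv1 and 17.5 to 25.6 CPM in the other inputs (log2 difference 1.47 ± 0.24, SE, adjusted p = 0.000434). The other members named among the higher were ZNF98, ZNF114, ZNF85, ZNF564, ZNF227 and ZNF600. ZNF98 and ZNF114 rested on 3 and 2 reads in the LNCaP inputs, with ratios of 7.15 (95% exact interval 2.2 to 36.8) and 7.15 (1.71 to 63.5), which cover counting error only.

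The members lowest in 22Rv1 were close to undetected there. ZNF132, a gene known for promoter methylation in prostate cancer, had 12.1 and 12.7 CPM in LNCaP, 15.1 and 7.75 CPM in LTAD and 0 and 0.679 CPM in 22Rv1. The 22Rv1 inputs held 1 read against 31 in LNCaP, a ratio of 39.0 (95% exact interval 6.50 to 1591, adjusted p = 0.000431). ZNF578 had 1 read in 22Rv1 and 34 in LNCaP, a ratio of 42.8 (7.18 to 1740). ZNF846 had 1 read and 22 reads, a ratio of 27.7 (4.48 to 1143). ZNF671 was low in 22Rv1 and LTAD: 11.3 and 7.96 CPM in LNCaP, 0.598 and 0.679 CPM in 22Rv1 and 2.33 and 1.55 CPM in LTAD. ZNF528 rested on more reads, with 54.9 and 38.2 CPM in LNCaP, 53.6 and 57.3 CPM in LTAD and 9.56 and 9.51 CPM in 22Rv1. All 4 of its LNCaP and LTAD inputs were above the 22Rv1 inputs, and the log2 difference from LNCaP was -2.28 ± 0.26 (SE, adjusted p = 3.12e-05). The others named by the rule were ZNF415 (log2 difference -3.01), ZNF792 (-2.92), ZNF880 (-2.49), ZNF418 (-2.48) and ZNF613 (-2.32).

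**Figure D3:**
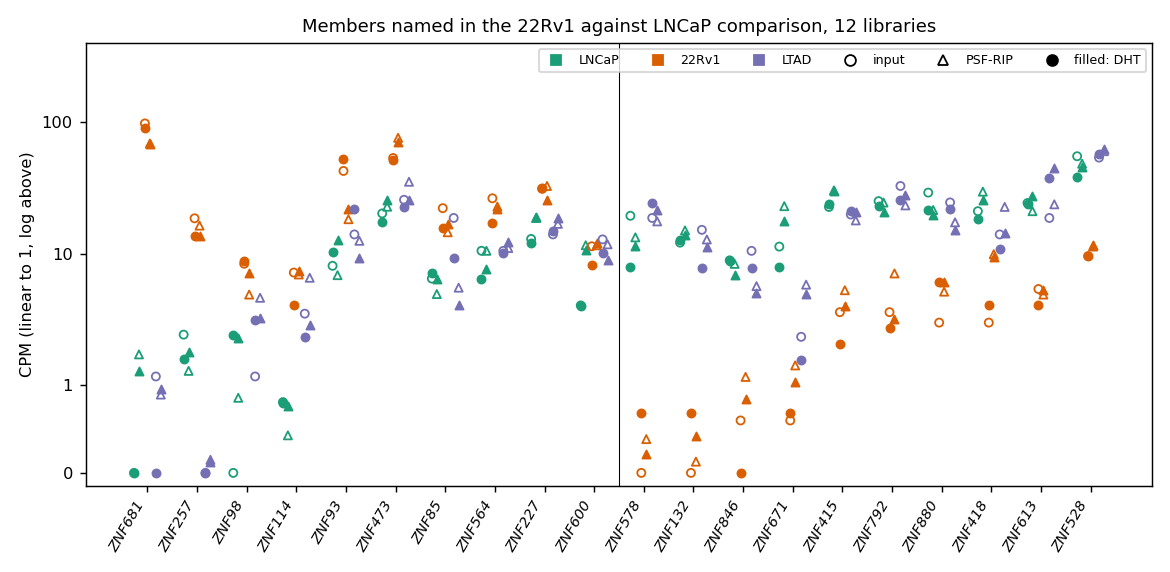
Level in CPM (vertical axis, linear to 1 and logarithmic above) of the 20 members named in the 22Rv1 and LNCaP comparison in all 12 libraries; colours mark the line, circles inputs, triangles PSF-RIP libraries, and filled symbols DHT. To the left of the line 22Rv1 lies above LNCaP in the inputs, to the right below it, and in ZNF681 the LNCaP inputs are at 0.

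The counts of members that differed between these lines are given by stretch of the chromosome. For comparison, 26.6% of all genes tested were called higher in 22Rv1 and 23.9% lower. At 19.8 to 24.3 Mb, the stretch with ZNF91, ZNF93, ZNF257 and ZNF681, 9 of 30 tested members were higher in 22Rv1 and 3 lower, with a median log2 difference of 0.23. The 3 lower ones were ZNF208 (-1.71), ZNF676 (-0.96) and ZNF91 (-0.96). At 52.1 to 54.1 Mb, 17 of 37 were lower and 1, ZNF600, higher (median -0.62). At 56.0 to 59.0 Mb, 21 of 57 were lower and none higher (median -0.54). At 7.1 to 9.9 Mb, 7 of 14 were lower and none higher (median -0.70), and at 35.2 to 35.5 Mb 4 of 5 were lower (median -1.68). At 44 to 45.6 Mb, 1 of 22 was lower and 2 higher (median -0.02). Genes other than zinc finger genes within the same bounds are few. Of 8 such neighbours at 56.0 to 59.0 Mb, 4 were lower and none higher (median -0.65), of 28 at 7.1 to 9.9 Mb 9 were lower and 5 higher (median -0.29), and of 14 at 44 to 45.6 Mb 1 was lower and 11 higher (median 1.17). No neighbour was tested at 19.8 to 24.3 Mb. Copy number was not measured here, and differences between stretches were not tested.

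**Figure D4:**
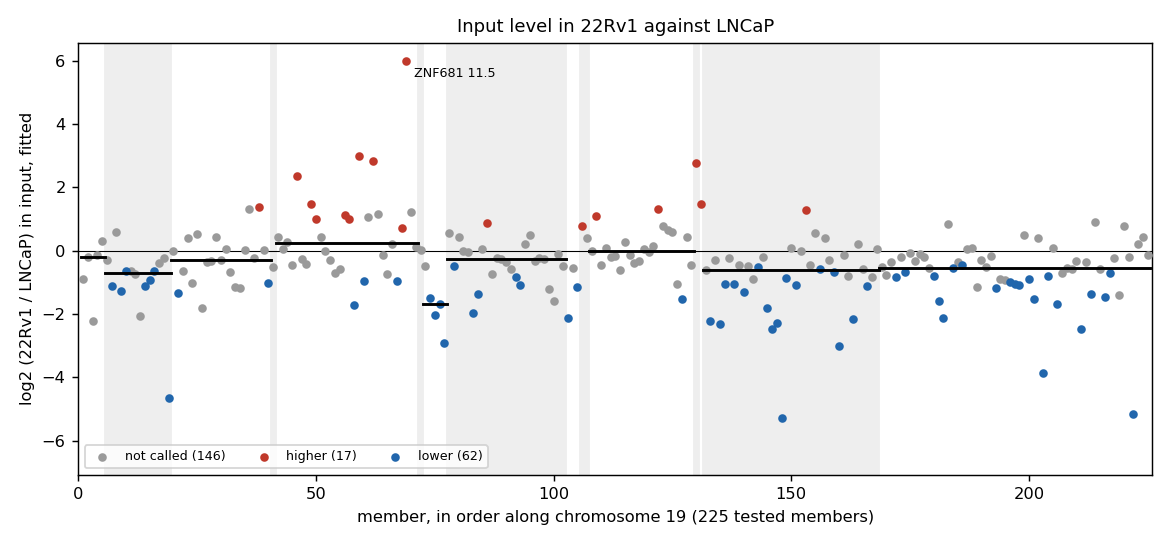
Fitted log2 difference of input level between 22Rv1 and LNCaP (vertical axis) for the 225 tested members in order along chromosome 19 (horizontal axis); red marks 17 members called higher, blue 62 called lower, black lines are medians of stretches with at least 5 tested members, and ZNF681 (11.5, set by the prior count since LNCaP had no read) is drawn at the upper limit. The stretch at 19.8 to 24.3 Mb holds 9 of the 17 higher members among its 30, and the last 2 stretches, at the right, hold 17 lower among 37 and 21 lower among 57. Of all genes tested, 26.6% were called higher and 23.9% lower.

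Few members differed between LTAD and LNCaP. In the inputs, 3 members were higher and 3 lower in LTAD (edgeR, adjusted p below 0.05), that is 2.67% of the members, against 8.34% of all genes called either way, 2.96% higher and 5.38% lower. The median log2 difference was 0.02. In both PSF-RIP treatments 2 of the 3 higher members and all 3 lower ones had the same sign, a share not computed over all genes called. ZNF428 had 45.4 and 44.9 CPM in LTAD against 20.2 and 25.5 CPM in LNCaP, ZNF468 had 38.4 and 34.9 against 21.8 and 16.7 CPM, and ZNF358 had 197 and 246 against 138 and 138 CPM. Their groups did not overlap, with log2 differences of 0.98 ± 0.26, 0.94 ± 0.25 and 0.69 ± 0.17 (SE, adjusted p = 0.0362, 0.0365 and 0.0272). ZNF671 was lower (-2.30 ± 0.58, adjusted p = 0.0320), as were ZNF552 (-1.49 ± 0.37, adjusted p = 0.0288) and ZNF224 (-1.75 ± 0.45, adjusted p = 0.0355), a repressor of the aldolase A gene. ZNF224 had 29.9 and 22.3 CPM in LNCaP and 3.49 and 10.8 CPM in LTAD. Fewer passed in other settings: 2 members passed with DESeq2, and 0 to 2 when any 1 of the 6 pairs was left out.

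Recovery with PSF did not pass the threshold for a difference between lines in any member. None was called for 22Rv1 or LTAD against LNCaP by edgeR or DESeq2, at 0% of all genes called in both comparisons. With edgeR, 11 and 12 of the 225 members had an unadjusted p below 0.05, against 794 and 715 of all 13368 genes. The smallest p-values for 22Rv1 were those of ZNF627 (log2 ratio of recoveries 1.18 ± 0.36, SE), ZNF681, whose LNCaP inputs had no read, and ZNF561 (-0.78 ± 0.26, SE), all with an adjusted p of 0.828. For LTAD they were those of ZNF91 (0.74 ± 0.21), ZNF600 (-1.64 ± 0.53) and ZNF358 (-0.69 ± 0.23), with an adjusted p of 0.903. With each line and treatment pair as a block, 4 members were called in each comparison (3.04% and 2.15% of all genes). For 22Rv1 they were ZNF561 (-0.79), ZNF627 (1.17), ZNF93 (-1.37) and ZNF91 (0.47). For LTAD they were ZNF358 (-0.68), ZNF43 (0.89), ZNF676 (0.88) and ZNF91 (0.73 ± 0.12, SE, adjusted p = 3.35e-07). The labels do not say whether the PSF-RIP and input of a pair share a lysate.

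ZNF91, a repressor of SVA retrotransposons, shows what lies behind that value. Its inputs stood at 260 and 232 CPM in LNCaP, 132 and 120 CPM in 22Rv1 and 222 and 217 CPM in LTAD, and its PSF-RIP libraries at 218 and 174, 133 and 150, and 313 and 278 CPM in the same order. The log2 ratio was below 0 in both LNCaP pairs (-0.29 and -0.46) and above 0 in both LTAD pairs (0.43 and 0.30), with -0.05 and 0.27 in 22Rv1. Fitted over all 12 libraries it was 0.03 ± 0.11 (SE, adjusted p = 0.803). ZNF43, from the same cluster, was higher in PSF-RIP (0.35 ± 0.14, SE, adjusted p = 0.0336), with pairs of -0.37 and 0.30 in LNCaP and 1.23 and 0.55 in LTAD, but not without the LTAD pairs (0.13). ZNF274, which recruits SETDB1 to the ends of other zinc finger genes, was higher in PSF-RIP (0.52 ± 0.12, SE, adjusted p = 0.00115), with its 6 pairs between 0.00 and 1.07. The first member along the chromosome, ZNF554, had a log2 ratio of 0.42 ± 0.23 (SE, adjusted p = 0.127).

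No member's level or recovery passed the threshold for a difference between DHT and vehicle. In the inputs none of the 225 was called by edgeR or DESeq2, against 0.591% of all genes by edgeR. With edgeR, 16 members had an unadjusted p below 0.05, against 1529 of all 13368 genes. The smallest p-values were those of ZNF573 (log2 difference of DHT and vehicle -1.005 ± 0.31, SE, adjusted p = 0.217), ZNF737 (0.66 ± 0.23, adjusted p = 0.277) and ZNF254 (0.46 ± 0.16, adjusted p = 0.278). ZNF573 stood at 17.8, 11.3 and 18.6 CPM with vehicle in LNCaP, 22Rv1 and LTAD and at 8.75, 7.47 and 6.97 CPM with DHT, lower in 3 of 3 lines and without overlap. In recovery none was called either, at 0% of all genes, and 10 members had an unadjusted p below 0.05, against 222 of all 13368 genes. The smallest p-values were those of ZNF101 (-1.08 ± 0.33, SE), ZNF837 (1.36 ± 0.44) and ZNF274 (0.58 ± 0.20), with an adjusted p that rounds to 1.

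The CLIP lists of LNCaP held 142 and 154 peaks within members in list 1 with vehicle and DHT, and 31 and 72 in list 2. Each list is 1 library. The lists hold positions and scores but no strand, so a peak was counted for a gene it overlapped whichever strand it came from. A peak lay in 36.9% and 40.2% of the 241 members in list 1 with vehicle and DHT, and in 9.96% and 24.1% in list 2. The shares among all protein-coding genes were 35.8%, 34.7%, 10.7% and 23.8% in the same order. The members' shares are near these. With a score of at least 100, a peak lay in 56, 52, 4 and 8 members, or 23.2%, 21.6%, 1.66% and 3.32%, against 21.2%, 18.2%, 1.41% and 4.57% of all protein-coding genes. In all, 128 members (53.1%) had a peak in at least 1 list and 12 (4.98%) in all 4, against 48.7% and 5.16%. The 10 members with the most peaks were ZNF83 (21 over the 4 lists), ZNF611 (11), ZNF787 (11), ZNF471 (10), ZNF160 (9), ZNF749 (9), ZNF134 (8), ZNF90 (8), ZNF146 (7) and ZNF274 (7). ZNF90 had 0 reads in both LNCaP inputs, so its peaks lie over a gene with no measured exonic RNA in that line. Per megabase of gene, the members held 26.9 and 29.1 peaks in list 1 and 5.87 and 13.6 in list 2, against 15.5, 14.9, 2.21 and 6.63 in all protein-coding genes. ZNF genes of other chromosomes held 31.0 and 28.6 in list 1 and 3.57 and 11.15 in list 2. The linker codons were under 4 peaks of members in list 1 with each treatment and under none in list 2. Coding exons held 7.75% and 7.19% of the members' peaks in list 1 and none in list 2, against 13%, 12.4%, 0.963% and 1.70% in all protein-coding genes (list 1 with vehicle and DHT, then list 2), and introns held most of the rest. In ZNF genes of other chromosomes the shares were 10.95%, 12.6%, 9.09% and 2.91%.

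A larger share of the members' peaks than of all peaks in genes lay near the start of the gene. Their median distance from it was 5.10 and 4.09 kb in list 1 and 1.998 and 2.204 kb in list 2, against 34.3, 34.2, 45.3 and 36.5 kb in all protein-coding genes. Within 2 kb of the annotated start lay 35.2%, 37.7%, 51.6% and 45.8% of the members' peaks (list 1 with vehicle and DHT, then list 2), against 6.50%, 6.66%, 4.11% and 6.25% of the peaks in all protein-coding genes. The members' genes are shorter, with a median span of 19.5 kb against 26.5 kb, so the density of peaks was compared too. In the first 2 kb the members held 103.9, 120.5, 33.2 and 68.5 peaks per megabase, against 33.2, 32.7, 3 and 13.7 in all protein-coding genes. The ratio was 3.12 (95% interval 2.33 to 4.09), 3.69 (2.82 to 4.73), 11.1 (6.55 to 17.02) and 5.01 (3.49 to 6.93), intervals that cover counting error only. They take each peak as independent, although many of these peaks lie in clusters of related genes. So they do not measure the spread between genes and are no test of the members as a set. The protein-coding genes in the comparison include the members. In the rest of the gene they held 19.15, 19.98, 3.12 and 8.12, against 14.9, 14.3, 2.19 and 6.41. ZNF genes of other chromosomes held 62.2, 55.9, 6.22 and 16.6 per megabase in the first 2 kb. A peak within 2 kb was present in 19.5%, 22.4%, 4.98% and 12.4% of the members and in 6.06%, 5.97%, 0.561% and 2.47% of all protein-coding genes. The 2 kb limit was chosen after the values were seen, and over the first 5 kb the ratios were 1.93, 2.38, 5.27 and 2.88. CLIP input libraries were not analysed here, so the density of RNA itself near these starts was not taken into account.

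**Figure D5:**
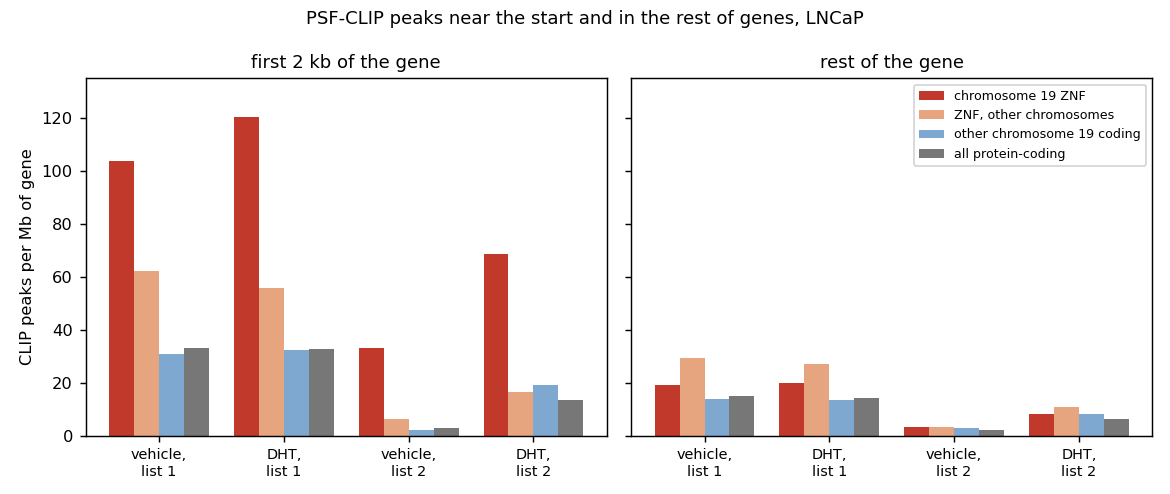
PSF-CLIP peaks per megabase of gene (vertical axis, from 0) in the first 2 kb of genes (left) and in the rest (right) for the 4 LNCaP lists, with bars for 4 sets of genes; each list is 1 library, so there is no error bar. In the first 2 kb the members of chromosome 19 stand highest in all 4 lists (103.9, 120.5, 33.2 and 68.5), and in the rest of the gene the sets lie nearer to each other.

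The starts with a peak were counted by stretch, with no test of the differences. Of 63 members with a peak within 2 kb of the start in at least 1 list, 24 of 38 lay at 52.1 to 54.1 Mb and 26 of 59 at 56.0 to 59.0 Mb. At 36.7 to 38.3 Mb 6 of 26 had one, and at 19.8 to 24.3 Mb 0 of 33. The latter stretch had 16 members with a peak further into the gene. The highest score in each list among the members, 2561, 1289, 326 and 651, belonged to ZNF471, in peaks centred 0.668 to 1.61 kb from its start. The score is the authors' value and ranks peaks only within a list. The median log2 ratio in PSF-RIP was 0.06 in 63 members with a peak near the start (12 higher, 8 lower), -0.02 in 61 tested members with a peak elsewhere (11 higher, 15 lower) and 0.08 in 101 without a peak (17 higher, 15 lower). This ratio covers all 3 lines, while the peaks are from LNCaP only. Of all protein-coding genes tested, 432 were higher and 421 lower among 1336 with a peak near the start. With a peak elsewhere 1872 were higher and 1411 lower among 5461, and without a peak 1413 and 1329 among 4959. LNCaP input levels of the 3 groups of members differed: the medians were 5.68, 5.13 and 3.38 RPKM.

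Bases covered by a peak in all 4 lists are the most repeated signal, and they were found in 12 places in 9 members: ZNF134, ZNF28, ZNF468, ZNF471, ZNF611, ZNF761, ZNF813, ZNF83 and ZNF841. All but the place in ZNF83, 8.93 kb into the gene, were centred within 2 kb of the start, between 0.668 and 2.00 kb from it. None overlapped an annotated exon on the same strand (GENCODE, GRCh37). Those of 6 places are printed 5′ to 3′ on the strand of the gene, to show their base composition and their likeness, from chr19:53323847-53323901 (ZNF28, minus strand), chr19:53359836-53360134 (ZNF468, minus), chr19:53972842-53973013 (ZNF813, plus), chr19:53237393-53237478 and chr19:53236883-53237135 (ZNF611, minus) and chr19:52597611-52597779 (ZNF841, minus). They are in lower case, since no base is marked.
ZNF28: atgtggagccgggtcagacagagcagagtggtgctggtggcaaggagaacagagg
ZNF468: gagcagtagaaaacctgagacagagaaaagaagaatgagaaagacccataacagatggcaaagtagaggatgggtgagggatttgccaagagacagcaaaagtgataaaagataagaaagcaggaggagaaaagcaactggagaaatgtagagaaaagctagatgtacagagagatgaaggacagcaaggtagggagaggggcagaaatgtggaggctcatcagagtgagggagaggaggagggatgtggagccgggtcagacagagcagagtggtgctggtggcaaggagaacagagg
ZNF813: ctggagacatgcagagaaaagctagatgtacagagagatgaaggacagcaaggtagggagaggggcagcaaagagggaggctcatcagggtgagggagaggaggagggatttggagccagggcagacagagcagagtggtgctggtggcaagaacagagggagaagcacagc
ZNF611, nearer the start: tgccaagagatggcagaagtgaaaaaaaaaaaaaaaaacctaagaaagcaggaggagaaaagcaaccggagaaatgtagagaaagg
ZNF611, further in: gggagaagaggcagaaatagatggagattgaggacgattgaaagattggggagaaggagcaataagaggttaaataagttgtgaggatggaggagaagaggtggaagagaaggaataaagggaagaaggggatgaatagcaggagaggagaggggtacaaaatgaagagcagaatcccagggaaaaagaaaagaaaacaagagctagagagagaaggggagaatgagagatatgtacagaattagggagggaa
ZNF841: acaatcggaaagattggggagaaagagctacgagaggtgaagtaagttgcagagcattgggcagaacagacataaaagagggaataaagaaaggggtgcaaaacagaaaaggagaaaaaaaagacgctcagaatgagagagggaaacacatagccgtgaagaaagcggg
These intron sequences consist mainly of purines (A and G): 72.7% in ZNF28, 77.9% in ZNF468, 76.7% in ZNF813, 82.6% and 83.4% in ZNF611 and 78.7% in ZNF841. The places in ZNF134 (56.1%) and ZNF471 (64.0% and 55.2%) held fewer. Several are copies of 1 another. The ZNF28 sequence was identical to the end of that of ZNF468 over its 55 bases, and ZNF468 and ZNF813 matched at 150 of 163 aligned bases (92.0%). ZNF468 and the first ZNF611 place matched at 67 of 84 aligned bases (79.8%), and the further ZNF611 place and ZNF841 at 82 of 113 (72.6%). All 5 genes lie in the stretch at 52.1 to 54.1 Mb, so the places are not independent observations. Reads of the copies may also be hard to assign.

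Purine content was also computed under all intronic peaks. On the strand of the gene, the median was 61.8% and 62.5% over 106 and 115 intronic peaks of members in list 1 with vehicle and DHT, and 64.0% and 63.0% over 27 and 63 in list 2. The intronic peaks of all protein-coding genes had medians of 61.3%, 61.7%, 57.02% and 60.4%, and those of the other protein-coding genes of chromosome 19 had 62.2%, 63.2%, 46.6% and 57.8%. Whole gene spans had a median of 48.7% purines in the members and 49.2% in all protein-coding genes. The medians of all protein-coding genes lay within the members' quartiles in all 4 lists. This composition was looked at after the shared sequences had been read.

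RNA of the genes for proteins that KRAB zinc fingers work with was measured in the same libraries. The list for the KRAB corepressor pathway held 37 symbols, of which FAM208A and TASOR name 1 gene, and 36 were tested. Of these, 20 were higher and 7 lower in PSF-RIP (median log2 ratio 0.43, and 75% called against 58.0% of all genes). Their median log2 CPM was 6.54, above that of the members. TRIM28, the corepressor that KRAB domains bind, had a log2 ratio of 1.20 ± 0.09 (SE, adjusted p = 2.35e-10, higher in 6 of 6 pairs). SETDB1 had 0.94 ± 0.11 (SE, adjusted p = 2.09e-07). The chromatin remodeler CHD4 (1.06) and the maintenance methyltransferase DNMT1 (0.90) were higher too, while the heterochromatin protein genes CBX5 (-0.67), CBX1 (-0.56) and CBX3 (-0.51) were lower. SFPQ, which encodes PSF itself, had 0.99 ± 0.08 (SE, adjusted p = 2.04e-09). In the inputs, 8 of the 36 were higher and 6 lower in 22Rv1 than in LNCaP (median 0.01), and TRIM28 differed by -0.15 ± 0.13 (SE, adjusted p = 0.360). Of 19 other zinc finger genes of chromosome 19 by name, such as ZSCAN18, ZIK1 and PEG3, 14 were tested. In PSF-RIP 3 were higher and 2 lower (median 0.06), and in 22Rv1 inputs 1, ZFP36, was higher and 5 were lower than in LNCaP (median -0.83). ZFP36 encodes an RNA-binding protein of another finger class.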

How the data were processed

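The authors deposited, for each of 12 libraries, read counts of RefSeq features (transcripts, introns, antisense strand; hg19; marked unique in a column), per the file headers. TopHat2 2.1.0, Bowtie2 2.2.6 and Bowtie appear in the submitters' processing notes. For CLIP the authors deposited peaks called in single libraries, each with a score. Which caller made them is not given in the sources used here. No strand accompanies a peak, so the planned count on the gene strand was replaced by either strand. Members and gene lists were chosen with earlier results of these data known.

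Counts as deposited, 1 transcript per symbol, were tested with edgeR 4.0.16 in R 4.3.3 (quasi-likelihood test, TMM scaling, default expression filter, Benjamini-Hochberg adjustment over 13368 genes, threshold 0.05). The recovery model held terms for line, treatment and assay (7 residual degrees of freedom), and that of the other comparisons also the interactions of assay with line and with treatment (4). The procedure was tested on simulated data. Ratios of single pairs used a prior count of 2. Each CPM is a count divided by the TMM-scaled library total over genes. Intervals are exact, at 95%, and the floor is 3 reads over a group. Gene models are GENCODE on GRCh37, fingers and linkers were found by pattern, and blastn 2.17.0 compared sequences.

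Named in PSF-RIP were the 12 members with the highest and the 12 with the lowest log2 ratio among those called, at or above the members' median level and with 1 sign in 6 of 6 pairs. In other comparisons they were the 10 at each end, or the 3 smallest p-values where none was called. The highest input levels, most peaks, chromosome ends, ZNF91, ZNF43, ZNF274, TRIM28, SETDB1 and SFPQ were named as well. Alternatives were RLE scaling, DESeq2 1.42.0, no filter, the longest transcript, removal of the length trend, thinning to equal depth, a block for pairs and leaving out lines or pairs. The 4 samples of a further LNCaP set, whose labels contradict each other, and 2 tables with 12 columns of per-sample values were not used. A list of basal, stromal (24.5 to 144.4 CPM summed in inputs), leukocyte (3.59 to 41.1) and erythroid (0 to 12.2) markers was examined beside the luminal and neuroendocrine ones.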

Additional observations from a re-analysis of the deposited data

How the results depend on the processing

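The count of members called in PSF-RIP ran from 52 with libraries thinned to equal depth to 90 with the pairs as a replicate block, within 1.5 times of 78 in all 16 alternatives run. The median log2 ratio of the members was -0.0296 after thinning, and -0.0496 to 0.05665 when a line or pair was left out. With the replicate block, 4 members were called for recovery in 22Rv1 and 4 in LTAD, against 0 without it, and it changed the DHT comparison of recovery in no call. The labels do not say that a pair shares a lysate. Calls between 22Rv1 and LNCaP inputs numbered 51 after thinning and 48 to 78 with a pair left out; those between LTAD and LNCaP numbered 2 with DESeq2, 3 after thinning and 0 to 2 with a pair left out. No other setting moved these counts by over 1.5 times. A comparison of input levels between lines has no pair to block. ZNF91, not called in PSF-RIP, changed sign from 0.03 to -0.02094 without the length trend and to -0.0065 after thinning, and ran from -0.15 without LTAD to 0.25 without LNCaP. Of the values of named members in PSF-RIP under other settings, 466 kept their direction and side of the threshold, 7 lost the call and 7 changed sign. For 22Rv1 against LNCaP 217 kept them and 18 lost the call, and for LTAD 33 and 38. With a score of at least 100, 56, 52, 4 and 8 members held a CLIP peak (list 1 with vehicle and DHT, then list 2). The density ratio near the start was 1.93, 2.38, 5.27 and 2.88 in the first 5 kb, and 4.80 and 5.64 in list 1 at that score; these settings were chosen after seeing the data. The alternative of a count by strand was not run, since the lists carry none. The cause of these shifts was not tested. The inputs are the shallower libraries, and the effect of low reads on calls was not tested.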
